A study of Mus musculus with 2 samples.

Results

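Genes that sense extracellular ATP and its breakdown product adenosine were measured in immune cells of the mouse cecum after a chemogenetic treatment meant to activate Trpv1+ neurons. The genes were listed by name for what they do in this pathway, and the 7 described here were all among the 55487 gene symbols of the count matrix: P2rx7 and P2rx4, P2ry10, Entpd1 and Nt5e, and Adora2a and Adora2b. Sorted CD45+ cells came from 4 male mice, each 101 days old: 2 littermate controls (CTRL) and 2 mice labelled Trpv1-ADC. Per the labels, all 4 mice had received an AAV by intraperitoneal injection as neonates and then CNO, the ligand of designer receptors, every other day for 7 injections, so both groups share the virus and the ligand. The strain label names Trpv1-WT.B6 and Trpv1-Cre.B6 together and does not say which mouse had which genotype. Trpv1 marks nociceptor sensory neurons, and the neurons themselves were not in the sorted cells. The 4 mice were labelled with hashtag antibodies and pooled into 1 droplet run, so all differences below lie within a single run.

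Cells release ATP when they are stressed or damaged, and surface receptors read it as a danger signal. P2X7 and P2X4 are ATP-gated cation channels, and P2X7, which needs high ATP, drives inflammasome activation in macrophages and shedding or death in T cells. CD39 (Entpd1) breaks ATP and ADP down to AMP, CD73 (Nt5e) turns AMP into adenosine, and the adenosine receptors encoded by Adora2a and Adora2b answer adenosine by raising cyclic AMP, which restrains T cells. P2ry10 carries a P2Y name but is known as a receptor for lysophosphatidylserine.

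The mouse of origin of every cell rests on the 15-base hashtag it carried, and these sequences, given by the labels, are the key to every comparison below.
CTRL 1: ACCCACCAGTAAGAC
CTRL 2: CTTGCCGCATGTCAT
Trpv1-ADC 1: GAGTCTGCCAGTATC
Trpv1-ADC 2: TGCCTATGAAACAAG
A cell was given to a mouse when its top tag had at least 10 counts and at least 3 times the next tag.

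P2rx7, on which most of the results below turn, lies on the plus strand at chr5:122643911-122691432 (GRCm38, GENCODE vM21), and P2rx4 starts 16111 bases beyond its end. RefSeq gives P2rx7 a pair of start sites, and the 250 bases before each (build GRCm38.p6, plus strand) are shown because counts per gene add up RNA from both. Capitals mark a match to the AP-1 motif TGANTCA, searched on both strands.
P2rx7 first start, chr5:122643677-122643926: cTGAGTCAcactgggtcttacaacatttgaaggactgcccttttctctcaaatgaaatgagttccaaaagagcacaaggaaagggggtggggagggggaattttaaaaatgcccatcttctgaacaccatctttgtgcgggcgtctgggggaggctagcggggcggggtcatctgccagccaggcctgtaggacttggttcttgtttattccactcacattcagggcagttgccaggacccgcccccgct
P2rx7 second start, chr5:122650133-122650382: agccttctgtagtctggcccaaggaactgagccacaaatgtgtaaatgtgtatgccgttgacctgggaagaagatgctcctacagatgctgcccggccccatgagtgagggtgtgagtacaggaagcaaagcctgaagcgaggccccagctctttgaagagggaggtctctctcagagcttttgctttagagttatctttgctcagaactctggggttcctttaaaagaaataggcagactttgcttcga
The first window has 1 match, which begins 249 bases before the start, and the second, whose start lies 6456 bases downstream, has none. Over all 32851 promoter windows of this length, 6.75% held an AP-1 match. Among the other members described here, the first of the P2ry10 windows held one, 99 bases before its start, and those of P2rx4, Entpd1, Nt5e and Adora2b held none. The cyclic AMP response element TGACGTCA, in 1.55% of all windows, was in none of these. No window was available for Adora2a, which was therefore not searched for either motif. The counts do not tell the P2rx7 starts apart, so no value below belongs to one of them.

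A count can be split between close copies of a gene. P2ry10 (chrX:107088492-107104974, plus strand) and P2ry10b, 43952 bases away, were identical at 814 of 964 aligned coding bases (84.4%), and 2.5% of the 91-base windows of the P2ry10 transcript were also in P2ry10b. Which end of the transcript the reads came from is not settled by the labels, so this share over the whole transcript need not hold for the reads counted. The other members were Entpd1 (chr19:40612366-40741602, plus strand), Nt5e (chr9:88327197-88372092, plus strand), Adora2a (chr10:75316877-75334784, plus strand) and Adora2b (chr11:62248984-62266453, plus strand). Entpd1 overlaps 3 other annotated genes on its own strand.

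After the filters, 17519 cells were kept, 4165 to 4531 per mouse with 27586172 to 29905834 UMIs (unique molecules counted) per mouse, and 15654 of the cells held a UMI of at least 1 member. Clusters were named from marker genes, and every class name below stands for cells like that type. 24 classes were named, 7 clusters with 5.43% of the cells were left unnamed, and 17 classes had at least 20 cells in each mouse and were tested. The sort was for CD45, yet 503 fibroblast-like and 130 endothelial-like cells were among those kept. CTRL 1 stood apart: it gave 98 follicular helper T-like cells against 295 to 412 in the other mice, and 9.01% of its kept cells were called doublets by a second hashtag caller against 0.29% to 2.52%. With 2 mice a group, the smallest 2-sided exact permutation p for a single value is 0.333. Gene tests therefore used edgeR's quasi-likelihood test on UMIs summed per mouse and class, Benjamini-Hochberg adjusted over all genes of the class with a threshold of 0.05. Levels are CPM, UMIs of the gene per 1000000 UMIs of that class and mouse, and are compared between classes and mice but not between genes. All log2 fold changes are Trpv1-ADC over CTRL, ± SE.

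Of 92 tests of a member in a class, 2 passed: P2rx7 rose and Adora2a fell, both in intraepithelial T-like cells. Over all genes in the 17 classes 0.777% of tests passed, and in intraepithelial T-like cells 7.85% of 10374 genes did (3.87% higher, 3.98% lower), so the calls of 2 of 6 members there stand against a class in which many genes changed. Another 27 pairs of a member and a class had too few UMIs to test. The fold changes by class showed P2rx7 above 0 in 12 of 14 classes, P2ry10 below 0 in 16 of 17 and Adora2a below 0 in 14 of 16, while P2rx4 and Nt5e were evenly divided. Leaving out a mouse raised the number of calls: it was 4 with CTRL 1 out, 8 with CTRL 2 out, 10 with Trpv1-ADC 1 out and 5 with Trpv1-ADC 2 out.

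**Figure D1:**
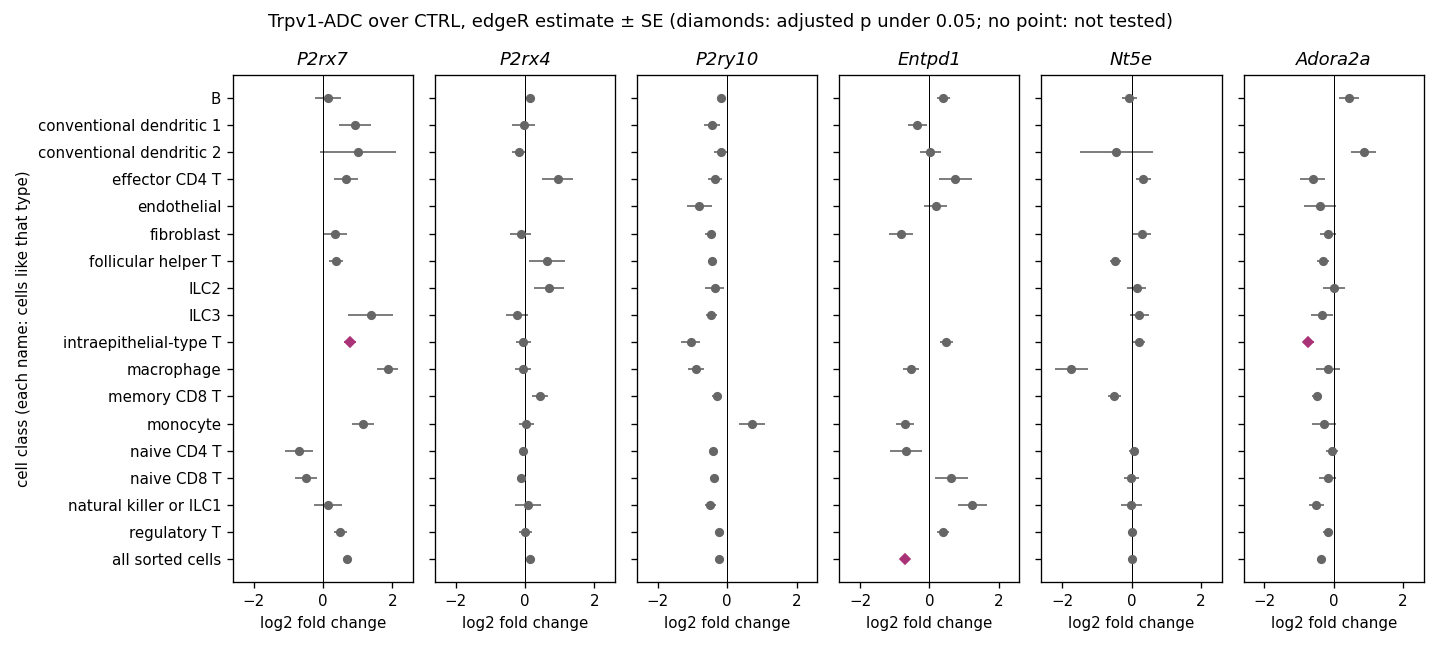
Log2 fold change (Trpv1-ADC over CTRL, x axis) with its SE for 6 of the genes in 17 cell classes and in all sorted cells (y axis); diamonds passed the edgeR threshold and a missing point was not tested. P2rx7 and Adora2a in intraepithelial T-like cells and Entpd1 in all sorted cells are the 3 diamonds, and the P2ry10 points lie left of 0 in 16 of 17 classes.

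P2rx7 was highest in macrophage-like cells, at 235 ± 161 CPM (SD, n = 4 mice), followed by effector CD4 T-like cells at 86.5 CPM, monocyte-like cells at 70.2 CPM, intraepithelial T-like cells at 67.6 CPM and follicular helper T-like cells at 61.9 CPM. B-like cells (5.15 CPM), memory CD8 T-like cells (3.80 CPM) and plasma cell-like cells (1.96 CPM) were lowest among the 22 classes with at least 50 cells. No class was separated from the next in the order, since the mouse values of every pair of neighbours overlapped. Macrophage-like cells held 24.11% of all P2rx7 UMIs in the kept cells, 10.64% in the CTRL mice and 32.62% in the Trpv1-ADC mice. The share of intraepithelial T-like cells was 19.19% in the CTRL mice and 9.70% in the Trpv1-ADC mice, where that class also had fewer cells.

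**Figure D2:**
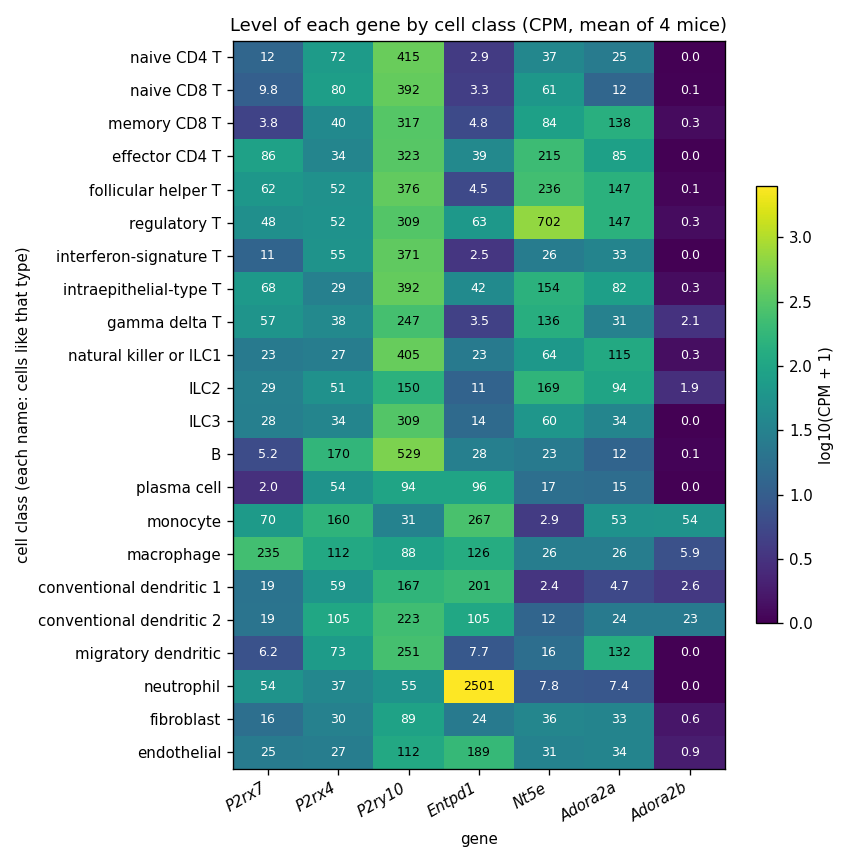
Mean level over 4 mice (CPM, printed in each cell; colour is log10(CPM + 1)) of the 7 genes (x axis) in 22 classes (y axis). Entpd1 peaks in neutrophil-like cells at 2501 CPM, Nt5e in regulatory T-like cells at 702 CPM and Adora2b in monocyte-like cells at 54.1 CPM.

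Intraepithelial T-like cells numbered 446 and 583 in the CTRL mice and 283 and 210 in the Trpv1-ADC mice. P2rx7 was at 45.5 CPM in CTRL 1 and 50.3 CPM in CTRL 2, against 74.4 CPM in Trpv1-ADC 1 and 100.1 CPM in Trpv1-ADC 2, from 114, 162, 107 and 114 UMIs. Both Trpv1-ADC mice lay above both CTRL mice. The means were 47.9 ± 3.43 and 87.3 ± 18.2 CPM (SD, n = 2 each), and P2rx7 rose with a log2 fold change of 0.79 ± 0.17 (edgeR, adjusted p = 0.0165). The call was lost without CTRL 1 (adjusted p = 0.0699) and without Trpv1-ADC 2 (adjusted p = 0.0558), and with DESeq2 (adjusted p = 0.0568). In cells thinned to 2000 UMIs, which sets aside differences in depth, P2rx7 was detected in 9.03% and 8.49% of the CTRL cells and in 17.03% and 16.75% of the Trpv1-ADC cells, where the unthinned shares were 19.7%, 19.0%, 24.4% and 32.9%. Plasma cell-like cells, the class with the lowest thinned share, had 0.67%.

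Within this class, 2 clusters were tested apart, a step chosen after the data were seen. Cluster T4, led by Cd7, Klrd1 and Cd160, held 61.1% of the class in the CTRL mice and 71.2% in the Trpv1-ADC mice, and cluster T7, led by Gzma, Ccl5 and Gzmb, held the rest. In T4, P2rx7 was at 30.2 and 35.9 CPM in the CTRL mice and at 74.4 and 92.9 CPM in the Trpv1-ADC mice, and it rose by a log2 fold change of 1.27 ± 0.22 (edgeR, adjusted p = 0.00226), in a cluster where 6.87% of genes passed. In T7 it was at 70.6 and 71.7 CPM against 74.4 and 116.3 CPM, with a log2 fold change of 0.39 ± 0.25 (edgeR, adjusted p = 0.466; 1.7% of genes passed). The log2 change in T7 was smaller than that in T4 by 0.90 ± 0.31 (edgeR cluster-by-group term, adjusted p = 0.0408). That adjustment covers 13 tests of members between the clusters of this class and between those of the regulatory T-like class. The CTRL values thus differed more between the clusters than the Trpv1-ADC values did.

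**Figure D3:**
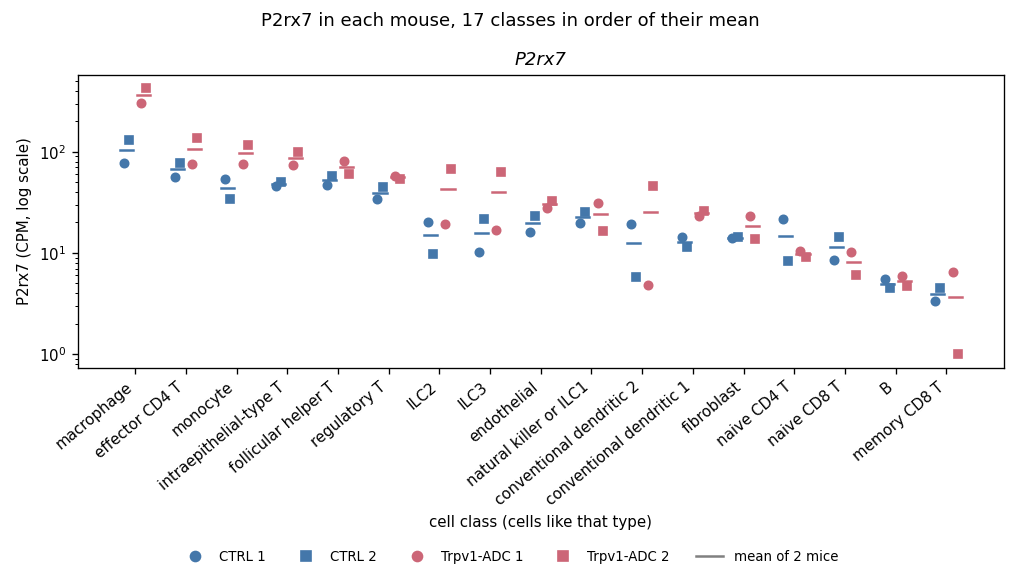
P2rx7 level (CPM, log scale) in each mouse (points; circles replicate 1, squares replicate 2) with the mean of each group of 2 mice (lines), in 17 classes ordered by their mean (x axis). In macrophage-like, monocyte-like and intraepithelial T-like cells both Trpv1-ADC mice lie above both CTRL mice.

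The largest fold of P2rx7 was in macrophage-like cells and did not pass the test. Its level was 76.8 and 131.4 CPM in the CTRL mice and 307.0 and 426.1 CPM in the Trpv1-ADC mice, from 89, 64, 288 and 455 UMIs. The groups did not overlap, and the log2 fold change was 1.87 ± 0.30 (edgeR, adjusted p = 0.0910), in a class in which 3 of 8829 genes (0.034%) passed. It passed in 4 of 12 other settings, among them DESeq2 (adjusted p = 0.000726) and the other hashtag caller (adjusted p = 0.0155), and missed in 8, at adjusted p up to 0.285. It passed when CTRL 2, Trpv1-ADC 1 or Trpv1-ADC 2 was left out, and not without CTRL 1 (adjusted p = 0.0877). In simulated data for this class edgeR recovered 26% of 2-fold and 84% of 4-fold changes. The simulation gave every gene the same spread between mice, and 117 genes passed in it against 3 in the real data. These shares may therefore be too high for the real test.

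The clusters inside the macrophage-like class differed between the groups, so the class value mixes level and make-up. Cluster M6, led by Apoe, Lyz2 and C1qb, was 7.7% of the class in the CTRL mice and 45.7% in the Trpv1-ADC mice. Cluster M3, led by Ccl8, C1qa and C1qc, was 41.6% and 26.3%. P2rx7 in M3 was 117.2 and 197.5 CPM in the CTRL mice and 368.7 and 639.4 CPM in the Trpv1-ADC mice. The last of these values came from 47 UMIs in few cells. In M7, led by C1qa, C1qb and Apoe, it was 53.7 and 42.1 CPM against 151.7 and 339.2 CPM, so in both of these clusters the Trpv1-ADC mice were higher without overlap. Over the whole class 19.6% of genes were apart in that direction, and no such share was taken for single clusters. M7 differed from M3 in P2ry10, at 195.9 and 201.0 against 213.3 and 102.1 CPM, where M3 had 33.8 and 40.7 against 11.0 and 0 CPM. Whether M7 holds cells or RNA of other types was not tested. P2rx7 was also read in the other clusters. In M6 it was 33.1 and 502.6 CPM against 349.5 and 517.8 CPM, with overlap, from 2 and 19 UMIs in the CTRL mice. M12 held 0 to 2 P2rx7 UMIs a mouse. The summed level of 10 monocyte marker genes in the class was also higher in the Trpv1-ADC mice, 7038 and 8042 CPM against 5144 and 5044 CPM, and their part in the P2rx7 result was not tested.

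P2rx7 also separated the groups elsewhere without passing the test. In monocyte-like cells it was at 53.9 and 33.9 CPM against 75.9 and 117.0 CPM (log2 fold change 1.17 ± 0.32, edgeR adjusted p = 0.242), and in regulatory T-like cells at 33.9 and 44.4 CPM against 58.0 and 54.2 CPM (0.51 ± 0.19, adjusted p = 0.321). Naive CD4 T-like cells (log2 fold change -0.69 ± 0.39) and naive CD8 T-like cells (-0.49 ± 0.33) were the 2 classes with a P2rx7 estimate below 0. The naive CD4 value rested on CTRL 1, at 21.5 CPM against 8.23 CPM in CTRL 2 and 10.53 and 9.05 CPM in the Trpv1-ADC mice. It was 0.23 without CTRL 1 and 0.34 with the other hashtag caller, and 0.23 in cluster T3, which was 18.9% of the class in the CTRL mice and 45.3% in the Trpv1-ADC mice. In 6 of 14 classes the Trpv1-ADC mice were higher without overlap and in 0 they were lower, where over all genes and classes 20.3% and 19% of tests had groups apart upward and downward. Between classes, the change in intraepithelial T-like cells exceeded that in naive CD4 T-like cells by 1.41 ± 0.44 (edgeR class-by-group term, adjusted p = 0.0348) and that in naive CD8 T-like cells by 1.28 ± 0.38 (adjusted p = 0.026), and was smaller than that in macrophage-like cells by 1.05 ± 0.29 (adjusted p = 0.0113). These adjustments cover 28 pairs of classes for P2rx7 and Adora2a, of which 7 passed. With CTRL 1 left out 2 passed, with CTRL 2 left out 3, and with Trpv1-ADC 2 left out 3, and each of the 7 was lost with at least 1 mouse left out. The difference from naive CD4 T-like cells was 0.45 without CTRL 1 (adjusted p = 0.532) and 0.50 with the other hashtag caller (adjusted p = 0.265).

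P2rx4, the channel encoded next to P2rx7, was highest in B-like cells (170 ± 11.1 CPM, SD, n = 4 mice) and monocyte-like cells (160 CPM), then macrophage-like cells (112 CPM). Monocyte-like and macrophage-like cells did not overlap in the order, and neither did type 2 conventional dendritic-like cells (105 CPM) and naive CD8 T-like cells (79.8 CPM). Its fold changes ran from -0.24 to 0.94 over 16 classes, 8 above and 8 below 0, with none at a raw p under 0.05 and none called. In intraepithelial T-like cells P2rx4 was at 28.7 and 29.2 CPM in the CTRL mice and at 31.3 and 26.4 CPM in the Trpv1-ADC mice, so the groups overlapped, unlike those of P2rx7 in the same cells. The log2 fold change was -0.05 ± 0.21, and 0.07 without Trpv1-ADC 2.

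P2ry10, the lysophosphatidylserine receptor, was at 529 ± 63.2 CPM (SD, n = 4 mice) in B-like cells, 415 CPM in naive CD4 T-like cells, 405 CPM in natural killer or ILC1-like cells and 392 CPM in both naive CD8 T-like and intraepithelial T-like cells, and was lowest in monocyte-like cells at 31.0 CPM. Every pair of neighbours in the order overlapped. It had the most uniform direction of the 7 genes. Fold changes were below 0 in 16 of 17 classes (median -0.42), with 10 at a raw p under 0.05, and in 13 classes both Trpv1-ADC mice were below both CTRL mice, where 19% of all tests had groups apart downward. None passed the threshold, and the classes are cells of the same 4 mice, so they are not independent repeats. In macrophage-like cells, among those 13, cluster M7 held 124, 43, 45 and 56 of the 141, 53, 57 and 66 P2ry10 UMIs. Within M7 the groups overlapped.

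The largest P2ry10 fold was in intraepithelial T-like cells, at 543.2 and 505.6 CPM in the CTRL mice against 333.0 and 185.3 CPM in the Trpv1-ADC mice. Neither group overlapped the other, although the Trpv1-ADC mice lay far apart. The log2 fold change was -1.06 ± 0.27 (edgeR, adjusted p = 0.0693), and 6 of 12 other settings passed, while DESeq2 did not (adjusted p = 0.142). With any 1 of the mice left out it passed (adjusted p at most 0.000237), at -1.61 without Trpv1-ADC 1 and -0.70 without Trpv1-ADC 2. Cluster T7 alone passed (-1.36 ± 0.16, adjusted p = 0.00175) and the larger cluster T4 did not (-1.01 ± 0.33, adjusted p = 0.165). At 2000 UMIs, P2ry10 was detected in 56.4% and 56.5% of these cells in the CTRL mice and in 32.3% and 21.5% in the Trpv1-ADC mice, where monocyte-like cells, the lowest class, had 6.05%. Unthinned shares were 78.3%, 76.3%, 48.4% and 40.5%. In naive CD4 T-like cells, whose UMIs are the largest share of all P2ry10 UMIs (18.60%), P2ry10 was at 467.0 and 479.6 CPM against 389.7 and 323.2 CPM (-0.42 ± 0.09, adjusted p = 0.103). This class value mixes level and make-up: cluster T3, whose share of the class was 18.9% in the CTRL mice and 45.3% in the Trpv1-ADC mice, was at 329.3 and 385.6 CPM against 287.6 and 283.1 CPM, and cluster T1 at 489.1 and 509.3 CPM against 444.4 and 365.8 CPM. Monocyte-like cells were the 1 class above 0 (0.72 ± 0.38, adjusted p = 0.582).

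**Figure D4:**
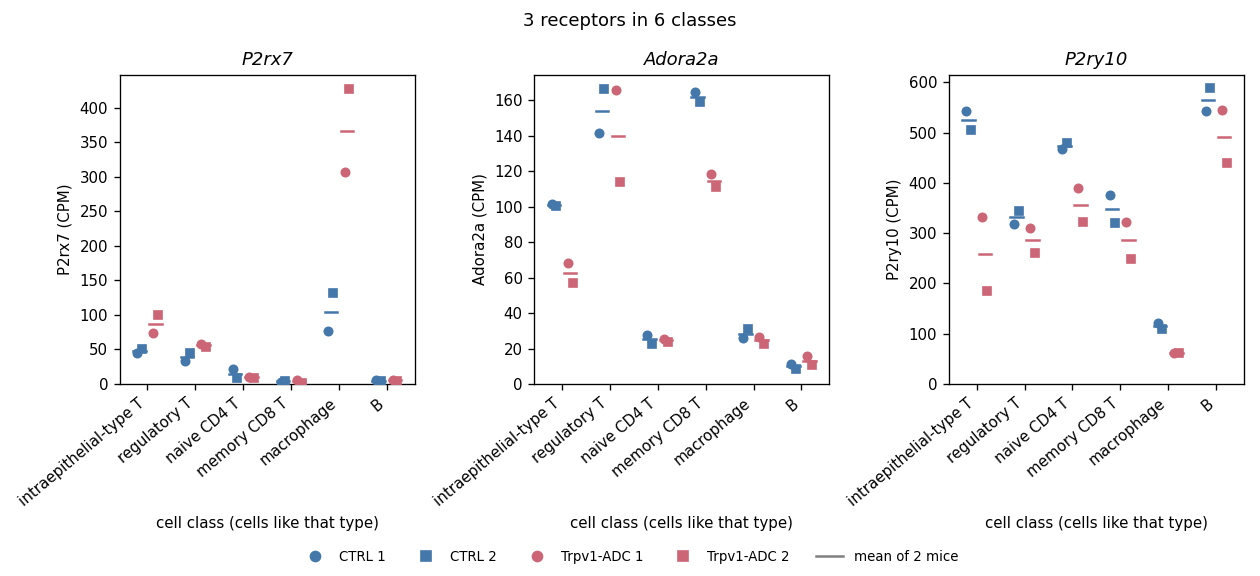
Level (CPM, linear axis from 0) of P2rx7, Adora2a and P2ry10 in each mouse (points; circles replicate 1, squares replicate 2) with group means of 2 mice (lines), in 6 classes (x axis). In intraepithelial T-like cells P2rx7 is higher and Adora2a and P2ry10 are lower in both Trpv1-ADC mice.

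Entpd1, which encodes the ATP-degrading enzyme CD39, had by far its highest level in neutrophil-like cells, 2501 ± 35.2 CPM (SD, n = 4 mice) with a range of 2461 to 2546 CPM over 101 cells. Monocyte-like cells had 267 CPM, type 1 conventional dendritic-like cells 201 CPM, endothelial-like cells 189 CPM, macrophage-like cells 126 CPM and regulatory T-like cells 63.3 CPM, while naive CD4 T-like cells had 2.93 CPM. The neutrophil-like values did not overlap the next class. At 2000 UMIs Entpd1 was detected in 91.1% of neutrophil-like and 33.5% of monocyte-like cells, against 0.44% of naive CD4 T-like cells.

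Summed over all sorted cells, Entpd1 was the member that passed. It was at 63.0 and 64.2 CPM in the CTRL mice and at 39.7 and 37.4 CPM in the Trpv1-ADC mice, without overlap. It fell by 0.71 ± 0.07 (log2; edgeR's quasi-likelihood test, adjusted p = 0.0460), against 0.245% of all 18783 genes called in such sums. The call was lost without each of the 4 mice in turn (adjusted p = 0.0696 to 0.0846). A sum over sorted cells cannot tell fewer cells of a type from less RNA per cell, and some classes rich in Entpd1 were smaller in the Trpv1-ADC mice. Macrophage-like cells were not, at 2.56% of the CTRL cells and 2.59% of the Trpv1-ADC cells. Neutrophil-like cells were 0.911% and 0.72% of the CTRL cells and 0.339% and 0.353% of the Trpv1-ADC cells, and monocyte-like cells 2.09% and 1.95% against 1.35% and 1.15%. Within neutrophil-like cells the level was 2519 ± 37.9 CPM in the CTRL mice and 2484 ± 33.0 CPM in the Trpv1-ADC mice (SD, n = 2 each). When every mouse was given the same class make-up, a weighting chosen after the data were seen, Entpd1 was at 49.2, 55.1, 47.1 and 48.7 CPM, and the log2 ratio went from -0.72 to -0.12. In that weighting both Trpv1-ADC values were still below both CTRL values, and the group means lay closer together than the CTRL mice did.

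**Figure D5:**
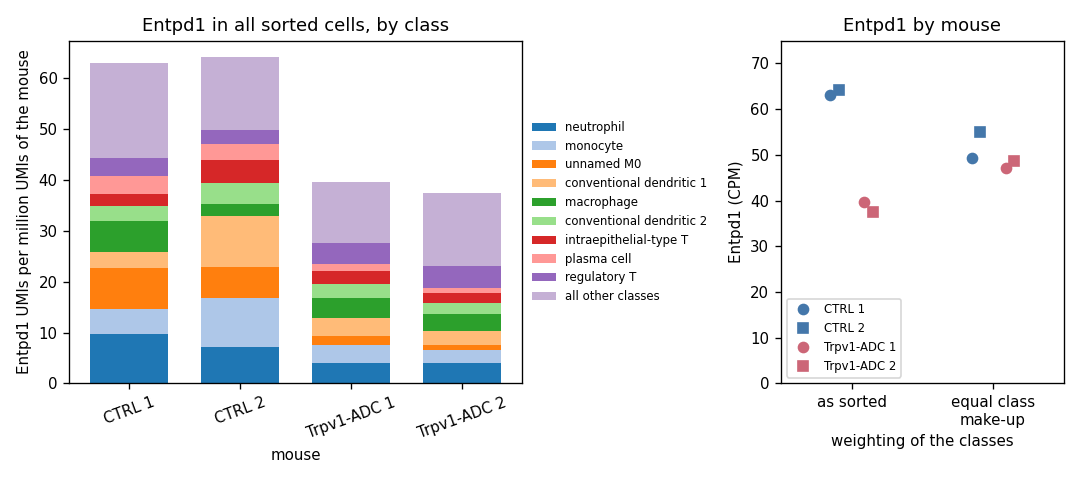
Left, Entpd1 UMIs per 1000000 UMIs of each mouse, stacked by the class that holds them; right, the Entpd1 level (CPM) of each mouse as sorted and with the same class make-up for all. As sorted the CTRL mice are at 63.0 and 64.2 CPM and the Trpv1-ADC mice at 39.7 and 37.4 CPM; with equal make-up all 4 lie between 47.1 and 55.1 CPM.

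By class, the Entpd1 estimate was above 0 in 8 of 13 classes and below 0 in 5, and none passed. In monocyte-like cells it was at 234.7 and 438.0 CPM against 208.7 and 187.7 CPM (log2 fold change -0.71 ± 0.26, edgeR adjusted p = 0.436). In natural killer or ILC1-like cells it was at 13.86 and 14.03 CPM against 31.4 and 33.2 CPM (1.24 ± 0.41, adjusted p = 0.323). Both are separations in opposite directions that did not pass. Macrophage-like cells, at 156.2 and 141.7 CPM against 115.1 and 91.8 CPM, missed as well (-0.53 ± 0.23, edgeR adjusted p = 0.520). They passed at Leiden resolution 2 (-1.02 ± 0.18, adjusted p = 0.00845) and with the stricter cell filter (-1.07 ± 0.20, adjusted p = 0.0446). At Leiden resolution 2 this class had 286, 154, 184 and 118 cells, against 144, 77, 130 and 102 as reported. With the stricter cell filter it had 242, 134, 145 and 88.

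In regulatory T-like cells, Entpd1 was at 60.8 and 48.1 CPM in the CTRL mice and at 76.6 and 67.7 CPM in the Trpv1-ADC mice (0.38 ± 0.17, edgeR adjusted p = 0.457). The 2 clusters of this class went apart when tested singly, after the data were seen. In T6, led by Il10 and Lag3, Entpd1 was at 72.8 and 47.4 CPM against 105.8 and 93.3 CPM and rose by 0.72 ± 0.20 (adjusted p = 0.0343), where 1.66% of all genes passed. In T9, led by Lrrc32 and Tnfrsf4 among others, it was at 40.6 and 49.9 CPM against 16.8 and 32.3 CPM, with an estimate of -0.78 ± 0.36 (adjusted p = 0.712). The difference between the clusters was -1.50 ± 0.40 (edgeR cluster-by-group term, adjusted p = 0.00644 over the same 13 tests of members).

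Nt5e, which encodes CD73, was a regulatory T cell gene in level: 702 ± 82.2 CPM (SD, n = 4 mice), above every other class without overlap, and 39.59% of all Nt5e UMIs. Follicular helper T-like cells had 236 CPM, effector CD4 T-like cells 215 CPM, ILC2-like cells 169 CPM and intraepithelial T-like cells 154 CPM, and type 1 conventional dendritic-like cells had 2.37 CPM. At 2000 UMIs, Nt5e was detected in 55.2% of regulatory T-like and 29.0% of follicular helper T-like cells, against 0.71% of monocyte-like cells. In regulatory T-like cells it was at 655.0 and 740.7 CPM in the CTRL mice and at 796.3 and 614.3 CPM in the Trpv1-ADC mice. The Trpv1-ADC mice lay on both sides of the CTRL mice, and the log2 fold change was 0.0001 ± 0.11. The Nt5e estimate was above 0 in 7 classes and below 0 in 7, and none was called. In macrophage-like cells Nt5e was at 46.6 and 34.9 CPM against 5.33 and 18.7 CPM (-1.74 ± 0.48, edgeR adjusted p = 0.264). Most of these UMIs lay in cluster M7, which held 47, 16, 3 and 16 of the 54, 17, 5 and 20. In cluster M3 Nt5e was at 15.8 and 0 CPM against 5.50 and 13.6 CPM, with overlap. The class estimate ran from -1.84 to -0.06 over 10 other settings, of which 1 passed.

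Both enzymes of the ATP-to-adenosine pathway were seen in the same cell in 85 of 1198 regulatory T-like cells at 2000 UMIs, or 7.10%, where the product of the single shares is 6.31%. In intraepithelial T-like cells the share with both was 1.20% and the product 1.28%. P2rx7 and Entpd1 were together in 22 of 399 macrophage-like cells (5.51% against a product of 3.77%). These are shares of cells with a UMI and are no test of co-expression.

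Adora2a, the adenosine receptor most associated with restraint of T cells, was at 147 CPM in both regulatory T-like and follicular helper T-like cells, 138 CPM in memory CD8 T-like cells, 132 CPM in migratory dendritic-like cells, 115 CPM in natural killer or ILC1-like cells and 81.7 CPM in intraepithelial T-like cells, down to 4.68 CPM in type 1 conventional dendritic-like cells. In intraepithelial T-like cells it was at 101.3 CPM in CTRL 1 and 100.3 CPM in CTRL 2, against 68.1 CPM in Trpv1-ADC 1 and 57.1 CPM in Trpv1-ADC 2, from 254, 323, 98 and 65 UMIs. Both Trpv1-ADC mice were below both CTRL mice. The means were 100.8 ± 0.694 and 62.6 ± 7.80 CPM (SD, n = 2 each), and Adora2a fell by 0.73 ± 0.15 (log2; edgeR, adjusted p = 0.0130). The call held without any 1 of the 4 mice and was lost with DESeq2 (adjusted p = 0.0597) and with every mouse drawn down to the smallest number of cells (adjusted p = 0.0671).

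Thinned to 2000 UMIs, Adora2a was detected in 18.1% and 15.1% of intraepithelial T-like cells of the CTRL mice and in 11.6% and 8.61% of those of the Trpv1-ADC mice, against 0.61% of type 1 conventional dendritic-like cells. Unthinned, the shares were 35.4%, 34.1%, 25.4% and 22.4%. By cluster, Adora2a fell by 0.88 ± 0.18 in T4 (edgeR, adjusted p = 0.00695) and had an estimate of -0.41 ± 0.29 in T7 (adjusted p = 0.528), and the difference between the clusters did not pass (0.47 ± 0.34, adjusted p = 0.468). Memory CD8 T-like cells had 164.7 and 159.1 CPM against 118.3 and 111.2 CPM, without overlap (-0.49 ± 0.14, adjusted p = 0.218). Regulatory T-like cells overlapped, at 141.4 and 166.5 CPM against 165.6 and 114.1 CPM (-0.17 ± 0.15, and 0.09 without Trpv1-ADC 2). The change in intraepithelial T-like cells was lower than that in regulatory T-like cells by 0.58 ± 0.20 (edgeR class-by-group term, adjusted p = 0.0347).

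Adora2b, the adenosine receptor with the lower affinity for adenosine, was a gene of monocyte-like cells (54.1 ± 15.1 CPM, SD, n = 4 mice) and type 2 conventional dendritic-like cells (23.2 CPM), each separated from the next class, with 5.93 CPM in macrophage-like cells and at most 2.64 CPM in any other named class. The unnamed cluster M0 had 58.4 and 53.7 CPM in the CTRL mice and 40.4 and 39.1 CPM in the Trpv1-ADC mice, and the unnamed cluster M8 32.4 and 55.6 CPM against 22.4 and 22.2 CPM. Only 2 classes could be tested under the settings reported, and neither passed. Macrophage-like cells passed with only tag doublets removed (log2 fold change -1.58 ± 0.30, edgeR adjusted p = 0.0484). They also passed with the stricter cell filter (-1.86 ± 0.36, adjusted p = 0.0492). The class was not the same set of cells in these settings. In CTRL 1, CTRL 2, Trpv1-ADC 1 and Trpv1-ADC 2 it had 375, 196, 199 and 157 cells with only tag doublets removed. With the stricter cell filter it had 242, 134, 145 and 88, against 144, 77, 130 and 102 as reported. Monocyte-like cells were at 60.3 and 72.7 CPM against 42.2 and 41.4 CPM (log2 fold change -0.61 ± 0.31, edgeR adjusted p = 0.555), and type 2 conventional dendritic-like cells at 20.3 and 11.7 CPM against 33.4 and 27.3 CPM (0.91 ± 0.39, adjusted p = 0.806). The groups were apart in both, in opposite directions. Across the 17 tested classes Adora2a and Nt5e had similar profiles (Pearson r of log2(CPM + 1) 0.72), and Adora2b ran against Nt5e (-0.67) and with Entpd1 (0.63). The classes share the same 4 mice and 1 run, and these values are descriptions.

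Other genes of the same pathways were read from the same fits, 81 listed and 80 in the matrix. In intraepithelial T-like cells 42 were tested, 3 rose and 5 fell, where 3.87% of all genes rose and 3.98% fell, with a median log2 fold change of 0.12 against 0.01 over all genes. The cyclic AMP side held most of these: of 12 tested effectors of the A2 receptors, 2 rose and 4 fell. Crem, a cyclic AMP-responsive transcription factor gene, was at 457.4 and 462.8 CPM in the CTRL mice against 271.1 and 205.5 CPM and fell by 1.00 ± 0.14 (log2; edgeR, adjusted p = 0.00261). Pde4d, which encodes a phosphodiesterase that degrades cyclic AMP, was at 280.8 and 247.2 CPM against 168.2 and 146.7 CPM and fell by 0.80 ± 0.13 (adjusted p = 0.00515). The nuclear receptor gene Nr4a3, at 430.7 and 422.4 CPM against 267.0 and 174.8 CPM, fell by 0.99 ± 0.18 (adjusted p = 0.00947), whereas its relative Nr4a1, at 255.2 and 287.6 CPM against 434.5 and 375.9 CPM, rose by 0.52 ± 0.13 (adjusted p = 0.0314). The list thus did not move one way.

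Of 8 tested effectors of P2X7 in these cells, 1 rose: Adam10, which encodes a sheddase of surface proteins, at 55.8 and 57.5 CPM against 83.4 and 119.5 CPM (log2 fold change 0.76 ± 0.17, edgeR adjusted p = 0.0181). Of 5 other ectonucleotidases, Entpd6 fell, from 31.9 and 38.2 CPM to 18.1 and 22.8 CPM (-0.86 ± 0.23, adjusted p = 0.0418). None of 4 other P2Y and related receptors, 2 NAD-consuming enzymes, 7 genes of adenosine removal and 4 genes of ATP release passed. Outside this class 1 pathway gene passed, Nr4a2 in type 1 conventional dendritic-like cells, at 554 and 538 CPM against 212.8 and 254.6 CPM, which fell by 1.24 ± 0.18 (edgeR, adjusted p = 0.00804; 0.67% of genes passed in that class). In macrophage-like cells 0 of 11 tested P2X7 effectors passed, with 3 at a raw p under 0.05.

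Other measures moved with the group in intraepithelial T-like cells. The summed level of 14 genes induced by handling and heat stress was 18720 and 19260 CPM in the CTRL mice and 26670 and 20280 CPM in the Trpv1-ADC mice, with 7 of the 14 higher and 3 lower without overlap, where 31.8% and 22.2% of all genes of the class were. The same sum in B-like cells was 4772 and 7023 CPM against 10470 and 14240 CPM. The 10 marker genes of the class summed to 4238, 4336, 3535 and 5499 CPM, so the class markers overlapped between the groups, and 8 macrophage markers stayed between 48.7 and 55.8 CPM in every mouse. The part of handling stress in the P2rx7, P2ry10 and Adora2a results was not tested.

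In all sorted cells together, P2rx7 was at 22.9 and 26.9 CPM against 37.1 and 42.4 CPM (log2 fold change 0.69 ± 0.12, edgeR adjusted p = 0.0748), and with equal class make-up its log2 ratio was 0.83. Adora2b was at 4.92 and 4.22 CPM against 2.54 and 1.79 CPM (-1.06 ± 0.24, adjusted p = 0.118), with a ratio of -0.35 at equal make-up. Both were apart between the groups, as 24% of genes were upward and 28.4% downward in these sums, and missed the threshold, and the weighting reduced the ratio of Adora2b but not that of P2rx7. Adora2a was at 58.3 and 60.4 CPM against 48.0 and 43.7 CPM (-0.36 ± 0.08, edgeR adjusted p = 0.113), with a ratio of -0.24 at equal make-up. It passed with DESeq2 (adjusted p = 0.0477) and with no low-count filter (edgeR, adjusted p = 0.0157). P2ry10 was at 341.9 and 350.8 CPM against 319.0 and 267.8 CPM (-0.22 ± 0.09, edgeR adjusted p = 0.277), with a ratio of -0.39. P2rx4 (0.13 ± 0.07) and Nt5e (0.005 ± 0.11) stayed close to 0.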

How the data were processed

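RNA and hashtags of sorted CD45+ cecum cells from 4 mice were read from 1 droplet run. Per the submitters' processing notes, the authors worked on mm10 with Cell Ranger and Seurat, of unnamed versions. The deposited matrices hold whole-number counts, raw UMIs for genes and raw tags for hashtags. The annotation release, and whether tags were counted as UMIs or reads, are not given in the sources used here. Both 3' and 5' chemistry are named by the labels. Nothing says how barcodes were chosen.

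Of 23063 barcodes (501 to 91135 UMIs each, median 5986), 22729 passed minimums of 500 UMIs and 200 genes and a maximum of 10% for mitochondrial UMIs. Tag doublets (3105) and 53 cells with a low tag were dropped. Scrublet, run in scanpy 1.11.5 at an expected rate of 0.2 (threshold 0.375), called 43.7% of tag doublets and took out 10.48% of the assigned cells. Cells were clustered by Leiden (leidenalg 0.10.2, resolution 1, 2000 variable genes without the 8 members, 30 components, 15 neighbours). T and innate lymphoid cells were then clustered again, and so were myeloid cells. Clusters were named from fixed marker lists. Those with few detected markers or with leading genes of another class stayed unnamed.

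UMIs were summed per mouse and class (223305 to 5563668 in tested classes) and tested in edgeR 4.0.16 (TMM, filterByExpr, robust fit, R 4.3.3) with no covariate, 1 fit per class. The mouse was the replicate, and mice of a group are separate animals. In simulated data edgeR recovered 67% of 2-fold and 92% of 4-fold changes among 10374 genes of intraepithelial T-like cells. Every gene of a class was simulated with the same spread between mice, unlike in real data. Differences between classes or clusters came from a fit with a term per mouse. Detection was compared in cells thinned to 2000 UMIs, with shallower cells left out. Thresholds and alternatives are given in the closing section, including DESeq2 1.42.0 and HTODemux of Seurat 5.3.0. Named genes were all members, pathway genes past the threshold (at most 4 a list and class, by raw p), and the 5 genes most like each member across the tested classes. The members and lists were chosen with earlier results of these data known, and 1 of the 8 listed genes is not reported here. Sequences are from RefSeq (GRCm38.p6) and GENCODE vM21, aligned with biopython 1.88.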

Additional observations from a re-analysis of the deposited data

Results flagged for a closer look

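In 9 comparisons the change of a member differed between cell classes or clusters by a test of the difference itself, the class-by-group or cluster-by-group term of edgeR's quasi-likelihood fit with a term per mouse. For Adora2a, the log2 fold change in intraepithelial T-like cells was lower than in B-like cells (difference -1.18 ± 0.29, adjusted p = 0.0109), type 2 conventional dendritic-like cells (-1.59 ± 0.39, adjusted p = 0.0109), naive CD4 T-like cells (-0.72 ± 0.23, adjusted p = 0.0347) and regulatory T-like cells (-0.58 ± 0.20, adjusted p = 0.0347). In B-like cells Adora2a was between 8.60 and 15.6 CPM in the 4 mice. For P2rx7, the change in intraepithelial T-like cells was lower than in macrophage-like cells (-1.05 ± 0.29, adjusted p = 0.0113) and higher than in naive CD8 T-like cells (1.28 ± 0.38, adjusted p = 0.026) and naive CD4 T-like cells (1.41 ± 0.44, adjusted p = 0.0348). The last rests on CTRL 1: without it the difference was 0.45 (adjusted p = 0.532), and with the other hashtag caller 0.50 (adjusted p = 0.265). Each of these 7 class differences was lost with at least 1 mouse left out. Inside classes, P2rx7 changed less in cluster T7 than in cluster T4 of the intraepithelial T-like cells (-0.90 ± 0.31, adjusted p = 0.0408), and the Entpd1 change was lower in cluster T9 than in cluster T6 of the regulatory T-like cells (-1.50 ± 0.40, adjusted p = 0.00644). Groups of 2 mice were too small for a search for single mice that stand apart.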

How the results depend on the processing

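The 2 called members in intraepithelial T-like cells and Entpd1 in all sorted cells kept their direction under every alternative run. P2rx7 in naive CD4 T-like cells, -0.69 as reported, was 0.34 with HTODemux, 0.23 in cluster T3 alone and -1.14 to 0.23 with a mouse left out, and Entpd1 in regulatory T-like cells was -0.78 in cluster T9. With a mouse left out P2rx4 in intraepithelial T-like cells ran from -0.25 to 0.0655 and Adora2a in regulatory T-like cells from -0.44 to 0.0923. Nt5e, near 0, changed sign. In regulatory T-like cells it was -0.0326 in cluster T9, -0.0031 with DESeq2, -0.0111 with HTODemux, -0.0258 at Leiden resolution 2, -0.023 with the members among the clustering genes, -0.0209 with no filter, -0.0064 with the replicate block, -0.0044 with RLE size factors and -0.19 to 0.18 with a mouse left out. In all sorted cells it was -0.0112 with HTODemux, -0.0066 with only tag doublets removed, -0.0106 with the stricter cell filter and -0.12 to 0.15 with a mouse left out. The 2 member calls by class were 1 with DESeq2, 4 at Leiden resolution 2, 9 with no filter on low counts, 5 with only tag doublets removed, 4 with the stricter cell filter and 4 to 10 with a mouse left out. The 1 call in all sorted cells was 3 with DESeq2, 4 with no filter, 0 without robust fitting, 0 with the stricter cell filter and 0 with any mouse left out. Without robust fitting Entpd1 there had an adjusted p of 0.0700, and with the stricter cell filter 0.0520 (edgeR). The 9 pathway calls were 4 with cells drawn down to the smallest mouse, 29 with no filter and 12 to 27 with a mouse left out. The 7 class differences, whose alternatives were chosen after seeing the data, were 3 with only tag doublets removed and 2 to 7 with a mouse left out. The mouse numbers are not stated to pair the mice. Deviations of same-numbered mice correlated between -0.094 and 0.055, which with 2 mice a group cannot show that they were unpaired. With the replicate block the counts were 4 members by class, 2 in all sorted cells and 17 pathway genes, P2ry10 in intraepithelial T-like cells had an adjusted p of 0.00161, and P2rx7 in all sorted cells 0.0278. P2rx7 was above 0 in 8 of 13 classes with cells drawn down, and Adora2a below 0 in 9 of 16 without Trpv1-ADC 2. Depth limits Adora2b most, which could be tested in 2 of 17 classes under the settings reported. In macrophage-like cells Adora2b passed with only tag doublets removed and with the stricter cell filter, settings in which that class was a different set of cells. With a mouse left out, the lone mouse of its group is assumed to vary like the other group.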

Other observations

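The class profiles nearest to each member, over 17 classes that share the same 4 mice and 1 run, are given with Pearson's r of log2(CPM + 1). Nearest to Entpd1 were Anxa4 (0.914) and Gnai2 (0.905), to Nt5e Rab37 (0.939) and Hacd3 (0.93), to P2ry10 Nup210 (0.926) and Dnajc9 (0.925), and to P2rx4 B430306N03Rik (0.9). Nearest to Adora2a was Gm5779 (0.85), with Tnfrsf9, a costimulatory receptor of activated T cells, at 0.833. Adora2b was most like Skint3 (0.99) and Mcemp1 (0.985), with nearly all of its UMIs in few classes. P2rx7 had the lowest best match, Vmp1 at 0.803, followed by Blvra at 0.796.

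Clusters left unnamed also held P2rx7. In cluster M8, led by Retnla, Lyz1 and Fn1, P2rx7 was at 15.4 and 23.8 CPM in the CTRL mice and at 63.4 and 171.9 CPM in the Trpv1-ADC mice, from 10, 6, 17 and 31 UMIs. In cluster M0, with Saa3 and Tgfbi among its leading genes, it was at 81.8 and 116.3 CPM against 77.1 and 234.4 CPM, with overlap. M0 also held 21.65% of all Adora2b UMIs and 8.11% of all Entpd1 UMIs, and was 3.19% and 1.85% of the CTRL cells against 1.02% and 0.309% of the Trpv1-ADC cells.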
